A study of Oryza sativa with 3 samples.

Results

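The regions described here are the OsWRKY11-Halo peaks on the long arm of rice chromosome 1, taken as peaks with a summit from 20 to 42.2 Mb. There were 1060 such peaks among the 15980 of replicate 1 (6.63%) and 1288 among the 21447 of replicate 2 (6.01%). The chromosome was chosen by a measured value, its density of peaks found in both lists, which was the highest of the 12 chromosomes, and the arm was taken because it carries the OsWRKY11 gene itself, near 25 Mb. Densities of peaks, and the density and share of peaks present in both lists, therefore describe the choice and were not tested. The arm is called gene-rich, a property that could not be checked because no annotation in the build of the lists was used here. With the build not given in the sources used here, sites are named by the positions of the lists and carry no gene names.

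WRKY proteins are plant transcription factors named after the conserved WRKY residues of their DNA-binding domain, which ends in a zinc finger. They are known to recognise the W-box, a short element with a TGAC core, and many act in defence and stress responses or in development. OsWRKY11 is a rice member of the family, and the study it comes from concerns its part in heading, the emergence of the panicle at flowering. The assay was DNA affinity purification sequencing, or DAP-seq, in which a protein made outside the cell captures fragments of naked genomic DNA. Chromatin is absent from such a reaction, so a peak reports affinity for a stretch of DNA and not occupancy in the plant.

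The series has 3 libraries. In 2 of them OsWRKY11 fused to the Halo tag was reacted with fragments of 200 to 800 bp from the cultivar Nipponbare, and in 1 green fluorescent protein with the same tag (GFP-Halo) was reacted as the background. All 3 were labelled as shoot DNA of Oryza sativa seedlings. The same labels also describe formaldehyde fixation of seedling shoots with a Myc-tagged OsWRKY11 driven by the pUbi promoter, and how far that step applies to these libraries cannot be told from them. Both peak lists were called against the same GFP-Halo library, and the labels do not tell whether the reactions of replicates 1 and 2 used separate preparations.

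Most peaks of the arm were short and thinly covered. Replicate 1 peaks ran from 113 to 1028 bp in length with a median of 166 bp, and replicate 2 peaks from 111 to 1112 bp with a median of 159.5 bp. The pileup, which counts the fragments of the OsWRKY11-Halo library over the summit, had a median of 11 in both lists and stayed under 20 at 97.9% and 98.1% of the arm's peaks in replicates 1 and 2. The median fold enrichment, the authors' linear ratio of the pileup to the GFP-Halo background, was 2.81 in replicate 1 and 2.71 in replicate 2. Both medians were the same as in the whole lists. Merged over both lists, the peaks formed 2067 separate sites that covered 413912 bp, or 1.86% of the arm. At the bounds of the arm, the first peaks inside had summits at 20056551 in replicate 1 and 20030249 in replicate 2 and the last at 42198435 and 42196768, while the nearest peaks outside lay at 19987683 and 19987995 below it and at 42220799 and 42211462 above it.

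Whether this arm was bound more densely than the other side of the chromosome was not settled by the lists. In replicate 1 the long arm held 47.7 peaks per Mb (exact 95% Poisson interval 44.9 to 50.7), against 46.1 (42.5 to 49.9) in the stretch from 1 to 14 Mb of the same chromosome, where 599 peaks lay. In replicate 2 the long arm held 58.0 peaks per Mb (54.9 to 61.3), against 65.4 (61.1 to 69.9) from 1 to 14 Mb, where 850 peaks lay. The density of the arm was thus close to that of the stretch in replicate 1 and lower in replicate 2. The ratio of densities, long arm over 1 to 14 Mb, was 1.04 (exact conditional 95% interval 0.937 to 1.15) in replicate 1 and 0.887 (0.813 to 0.969) in replicate 2, with a mean of 0.962 ± 0.105 (SD, n = 2 lists). The distance of this mean from 1 was smaller than the spread between the lists, and the replicate 1 interval included 1. Intervals cover counting error only. Counts per 1 Mb window varied more than Poisson counts, with variances of 1.66 and 1.37 times the mean in the arm, so these intervals are too narrow.

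Peaks found in both lists were counted from either list, and pairing itself makes the 2 numbers nearly equal. A peak was counted as shared when it and a peak of the other list overlapped by 50% or more of the shorter one. Among several, the one with the closest summit was its partner. On the long arm 221 of 1060 replicate 1 peaks had a partner (20.8%, 95% Wilson interval 18.5% to 23.4%), beside 17.6% of the whole list. Of the 1288 replicate 2 peaks, 221 had one as well (17.2%, 15.2% to 19.3%), beside 13.1% of the whole list. The choice of the chromosome favours shares above those of the whole lists, so these intervals are no test of a difference. From 1 to 14 Mb the shares were 19.4% (16.4% to 22.7%) in replicate 1 and 13.8% (11.6% to 16.2%) in replicate 2, with intervals that overlap those of the arm. The density of shared peaks was 9.95 per Mb on the arm (8.69 to 11.4) in both lists, against 8.92 (7.37 to 10.7) from 1 to 14 Mb in replicate 1, where the 13 Mb held 116 shared peaks. In replicate 2 the same stretch held 117 (7.44 to 10.8 per Mb).

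Without peaks of pileup 40 or more the arm kept 1040 peaks in replicate 1 and 1268 in replicate 2, of which 207 (19.9%) and 206 (16.2%) had a partner, beside 16.9% and 12.5% of such peaks in the whole lists. The density of shared peaks on the arm was then 9.32 per Mb in replicate 1, against 8.77 from 1 to 14 Mb. In replicate 2 it was 9.28 per Mb on the arm, against 8.85 from 1 to 14 Mb. The ratio of all peak densities, arm over 1 to 14 Mb, was 1.02 in replicate 1 and 0.876 in replicate 2 without them.

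**Figure D1:**
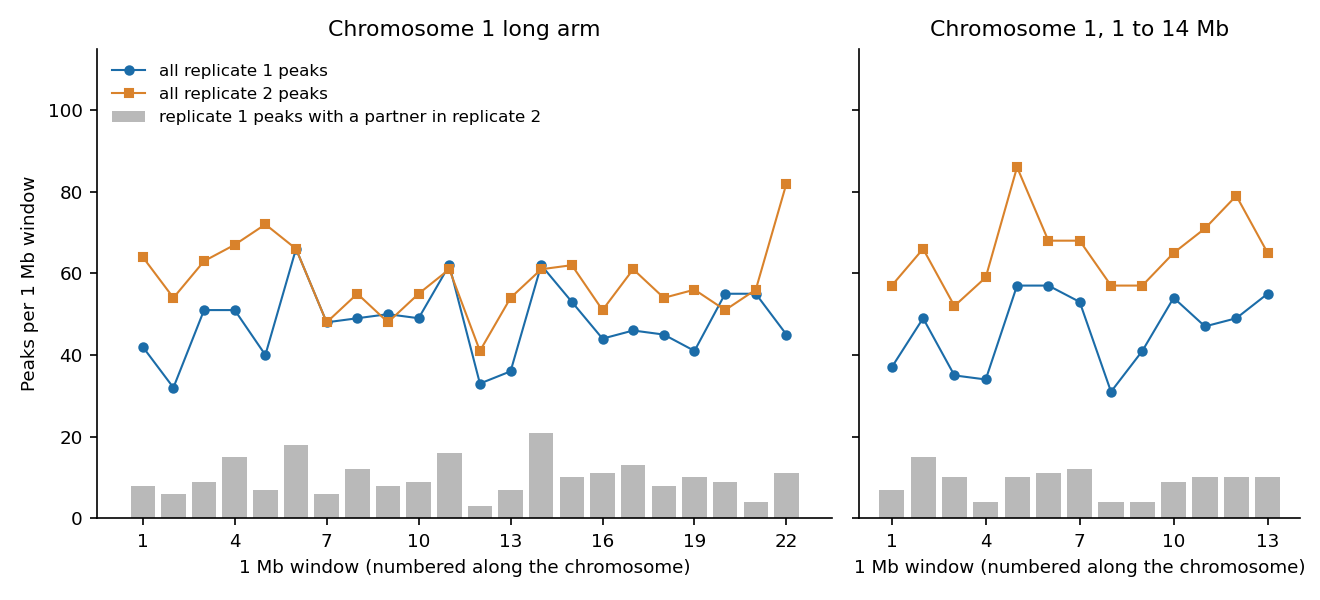
Number of peaks in each whole 1 Mb window of the chromosome 1 long arm (left, 22 windows) and of chromosome 1 from 1 to 14 Mb (right, 13 windows), numbered along the chromosome. Lines join all peaks of each list and bars give replicate 1 peaks with a partner in replicate 2. The lists cross on the arm, where replicate 2 is above replicate 1 in 16 of 22 windows, while it is above in all 13 windows from 1 to 14 Mb.

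Along the arm, whole 1 Mb windows held 32 to 66 peaks in replicate 1 with a median of 48.5, and 41 to 82 in replicate 2 with a median of 56. Windows from 1 to 14 Mb held 31 to 57 peaks (median 49) in replicate 1 and 52 to 86 (median 65) in replicate 2. Over the 22 windows of the arm, the counts of the lists were loosely related, at r = 0.236 (Pearson) and rho = 0.251 (Spearman). This r was 0.427 with peaks at a q-value of 0.05 or lower, 0.420 with folds of at least 3 and 0.387 in windows of 0.5 Mb. Over the 13 windows from 1 to 14 Mb, r was 0.732 and rho 0.696, and over all 368 windows of the genome r was 0.660. Windows share the libraries and the GFP-Halo control and are not replicates, so these correlations are descriptions, and the difference between them was not tested. The end of the arm beyond the last whole window, from 42 to 42.2 Mb, held 5 peaks in replicate 1 and 6 in replicate 2, and 0 of them were shared.

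Shared peaks were spread over every window of the arm, with a range of 3 to 21 replicate 1 peaks per window and a median of 9, beside a median of 10 from 1 to 14 Mb and of 7 over the genome. The most shared peaks lay in the window from 33 to 34 Mb, with 21 of 62 replicate 1 peaks and 22 of 61 replicate 2 peaks. That window also held 16 peaks of pileup 40 or more in replicate 1 and 12 in replicate 2, and with them left out it had 10 and 11 shared peaks, close to the median. The next was the window from 25 to 26 Mb. It held 66 peaks in each list, of which 18 in replicate 1 and 17 in replicate 2 were shared, and 0 peaks of pileup 40 or more. It has the position given for OsWRKY11 at its edge, as does the window from 24 to 25 Mb. The latter held 7 shared peaks in each list, among 40 and 72 peaks. The third most shared peaks lay in the window from 30 to 31 Mb, with 16 in either list among 62 and 61 peaks. The fewest shared peaks lay from 31 to 32 Mb, with 3 in each list among 33 and 41 peaks, directly beside that window. Next came 40 to 41 Mb, with 4 in each list among 55 and 56 peaks. The windows from 21 to 22 Mb and from 26 to 27 Mb tied for the third lowest number, with 6 shared replicate 1 peaks each.

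The position given for OsWRKY11 was used to ask what was captured around the gene of the protein itself. Within 500 kb on either side, from 24.5 to 25.5 Mb, each list held 67 peaks, all with a pileup of at most 18. Replicate 1 folds lay between 2.06 and 4.61 (median 2.94), and replicate 2 folds between 2.19 and 4.18 (median 2.95). The authors' q-value was 0.05 or lower at 23 of the 67 peaks in replicate 1 and at 30 in replicate 2, beside 29.9% and 28.2% of the whole lists. Of the 67 peaks, 16 in replicate 1 and 15 in replicate 2 were shared, beside 17.6% and 13.1% of the whole lists. On the whole arm the shares were 20.8% and 17.2%. Both shared and within that q-value were 10 peaks in replicate 1 and 9 in replicate 2.

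The strongest shared site of this stretch lay at 25141734 to 25142035. Its pileup was 18 in replicate 1 and 16 in replicate 2, with folds of 4.52 and 4.16 and summits 23 bp apart, and it was the second strongest of the whole arm by its lower fold. A site at 24917190 to 24917343 followed, with a pileup of 14 in both lists, folds of 3.84 and 3.69 and summits 12 bp apart. The next, at 25034766 to 25035412, had pileups of 13 and 14 and folds of 3.58 and 3.69. Its replicate 2 partner was long, from 25034304 to 25035306, and it also served as the partner of a second replicate 1 peak at 25034306 to 25034505. Further along, a site at 25431992 to 25432501 had folds of 3.58 and 4.18, and one at 24737167 to 24737320 had 3.33 and 3.69 with summits 2 bp apart. Sites at 24915366 to 24915683, 25097575 to 25097867 and 25373168 to 25373448 each had a fold of 3.20 in replicate 2, beside 3.33, 4.61 and 3.84 in replicate 1. Except for the replicate 1 peak at 25034306, all of these had a q-value of 0.05 or lower in replicate 1 and in replicate 2. The remaining shared sites of the stretch, which start at 24740929, 24807621, 25194395, 25268929, 25296058, 25337330 and 25453404 in replicate 1, had a weaker fold between 2.30 and 2.97.

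Within that q-value, 13 of the 23 peaks of the stretch in replicate 1 and 21 of the 30 in replicate 2 had no partner. On the whole arm it was 201 of 326 and 296 of 416. In replicate 1 the strongest of them was at 24655960 to 24656184, with a fold of 4.09. In replicate 2 these were peaks at 25033547 to 25033761 and at 25219265 to 25219480, with folds of 4.11 and 4.06. Replicate 1 had no summit between 24944164 and 25028786, a gap singled out after its position was seen. Replicate 2 had summits inside this gap at 24987072, 25012901 and 25016851, the last of them within that q-value. Elsewhere on the arm, replicate 1 summits lay up to 189391 bp from the next. Where the coding region and promoter of OsWRKY11 fall among the sites was not analysed here, because no gene coordinates in the build of the lists were used.

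**Figure D2:**
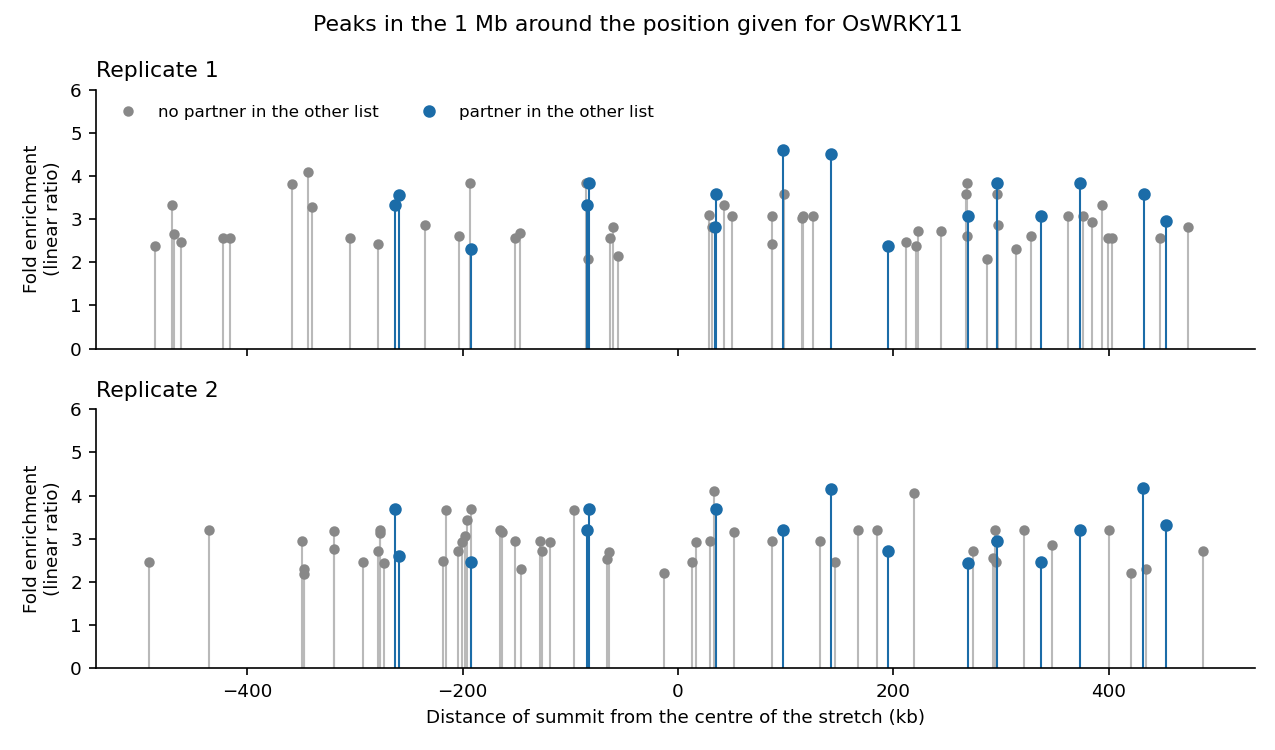
Fold enrichment over GFP-Halo (linear ratio) of every peak within 500 kb of the position given for OsWRKY11, by distance of the summit from the centre of the stretch in kb, for replicate 1 (top) and replicate 2 (bottom). Blue marks peaks with a partner in the other list, 16 in replicate 1 and 15 in replicate 2, and grey marks the others. No fold in the stretch exceeds 4.61.

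The shared sites of the arm were ranked by the fold enrichment of the weaker list. The first 8 had a weaker fold from 3.94 to 4.18, below the 7.14 reached by the strongest shared site of the whole lists, and 6 pairs of the arm had a fold of at least 4 in both. The first lay at 23825490 to 23825698, with folds of 4.35 and 4.18 (4.27 ± 0.117, SD, n = 2) and a pileup of 16 in both lists (exact 95% Poisson interval 9.15 to 26.0). The second was the site at 25141734 described above (4.34 ± 0.256). Their means lay closer together than the lists did.

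Sites at 21726936 to 21727152, 30287044 to 30287408 and 40520641 to 40520922 shared a replicate 1 fold of 4.09 at a pileup of 15, with replicate 2 folds of 4.18, 4.68 and 4.40. Ties of this kind recur because a whole-number pileup on one constant background can give only a few values of fold. Summits of the sites at 21726936 and 40520641 lay 46 and 36 bp apart. Those of the site at 30287044 lay 526 bp apart, so its peaks may not mark the same position. Its replicate 2 partner, at 30287196 to 30287755, also served as the partner of a replicate 1 peak at 30287629 to 30287741. That peak had a fold of 3.07 and a summit only 37 bp from the partner's. The 6 pairs with a fold of at least 4 in both lists include the site at 30287044. The eighth and seventh sites, at 34763176 to 34763878 and 27206646 to 27207209, had a replicate 2 fold of 3.94 each and replicate 1 folds of 4.09 and 4.52.

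The sixth site, at 39125040 to 39125429, was of another kind in its depth. Its pileup was 124 (103 to 148) in replicate 1 and 129 (108 to 153) in replicate 2, over a GFP-Halo background of 29.8 and 30.6 fragments. Its folds were 4.06 and 4.12 (4.09 ± 0.0433, SD, n = 2), and its summits lay 1 bp apart. It was the one site among the first 8 with a pileup of 40 or more, the others having pileups of 15 to 18.

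Across the 221 pairs, fold enrichment was moderately related between the lists. Spearman's rho was 0.373 (95% interval by Fisher's transformation 0.254 to 0.482) on the arm, against 0.132 (-0.0519 to 0.307) over the 116 pairs from 1 to 14 Mb and 0.305 over all 2805 pairs of the lists. These are correlations across peaks that share a GFP-Halo background in both folds, given as descriptions. Without pairs that include a pileup of 40 or more, rho was 0.309 over 206 pairs on the arm and 0.0934 over 114 pairs from 1 to 14 Mb. Among the 106 arm pairs whose background was lowest in each list, and so a constant, rho was 0.158 and its interval of -0.0334 to 0.339 included 0. For such pairs rho was -0.0242 (-0.283 to 0.238) over 57 pairs from 1 to 14 Mb. Over all 1304 such pairs of the lists it was 0.208 (0.155 to 0.259). Summits of the arm's pairs lay a median of 61 bp apart, within 10 bp in 27 pairs and within 100 bp in 146 (66.1%). Over all pairs of the lists the median was 58 bp, with 397 of 2805 within 10 bp and 70.4% within 100 bp. The 221 replicate 1 peaks had 217 different partners, as some long replicate 2 peaks overlapped more than 1. The fold was higher in replicate 1 in 124 pairs and in replicate 2 in 97.

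**Figure D3:**
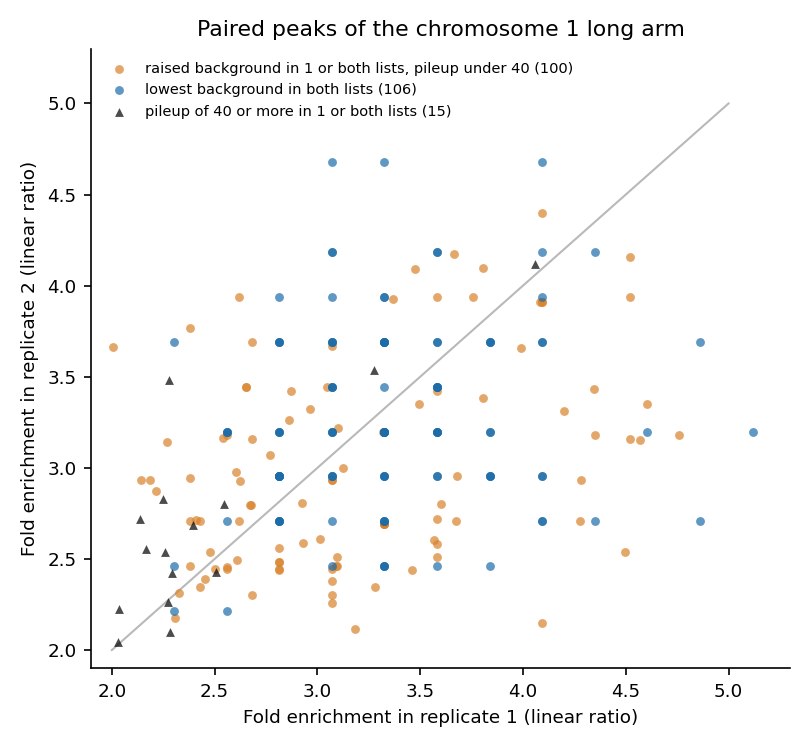
Fold enrichment (linear ratio) of the 221 paired peaks of the chromosome 1 long arm in replicate 1 (x axis) and replicate 2 (y axis), with a grey line at equal values. Colours separate the 106 pairs whose GFP-Halo background was lowest in each list, 100 pairs on a raised background and 15 pairs with a pileup of 40 or more (triangles), and points that fall on the same value overlap. The blue points form a grid because their background is constant, and most triangles lie at folds under 3.

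Peaks with a higher fold had a partner more often on the arm, as they did in the whole lists. In replicate 1 the share with a partner was 11.9% (95% Wilson interval 9.16% to 15.3%, n = 429 peaks) at folds from 2.5 to 3, 38 of 95 peaks (30.7% to 50.1%) from 3.5 to 4 and 64.7% (51.0% to 76.4%, n = 51) at 4 and over. In replicate 2 it was 14.5% (11.8% to 17.8%, n = 516), 43.2% (33.3% to 53.6%, n = 88) and 51.9% (34.0% to 69.3%, n = 27) in the same classes. The whole lists gave 12.8%, 31.1% and 50.1% in replicate 1 and 11.6%, 29.9% and 42.9% in replicate 2. From 1 to 14 Mb, 14 of 28 peaks (32.6% to 67.4%) in replicate 1 and 7 of 21 (17.2% to 54.6%) in replicate 2 had a partner at folds of 4 and over, with intervals that overlap those of the arm. The lowest class of replicate 1 broke the order, with 17.0% (n = 182) at folds from 2 to 2.5, and without peaks of pileup 40 or more it stood at 12.1% (n = 165). The shares of replicate 2 at these folds were 10.2% (n = 382) with them and 8.85% (n = 373) without.

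**Figure D4:**
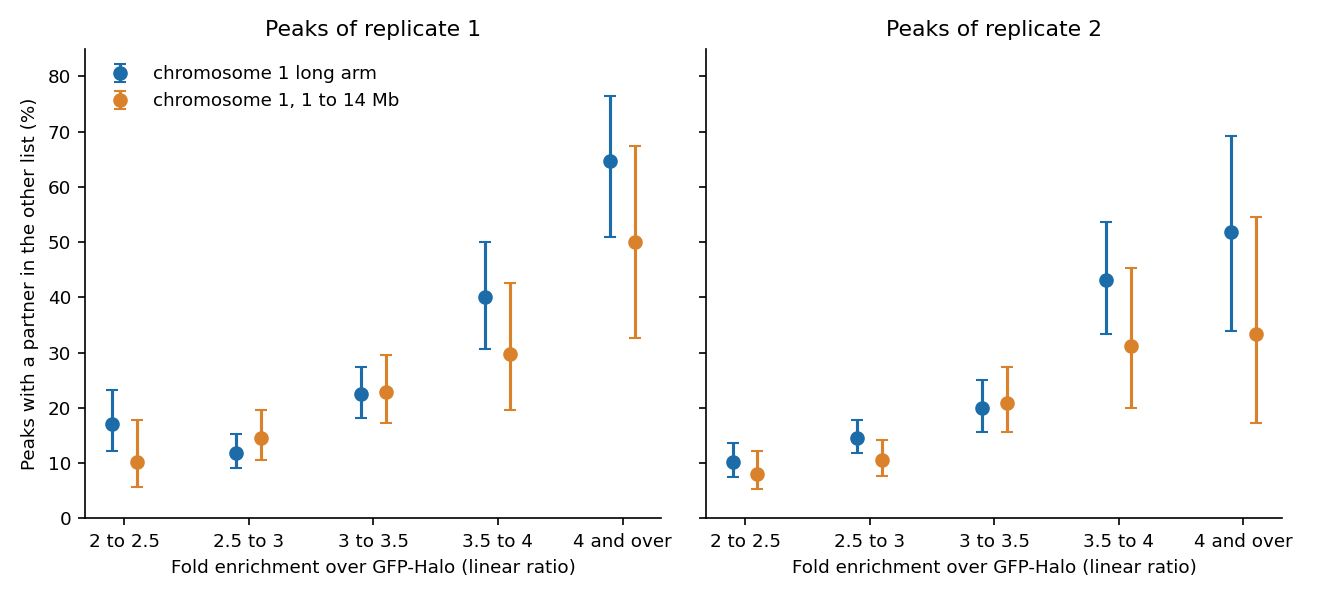
Percentage of peaks with a partner in the other list by class of fold enrichment (linear ratio), for replicate 1 (left) and replicate 2 (right), on the chromosome 1 long arm and from 1 to 14 Mb of the same chromosome. Points are shares and bars are 95% Wilson intervals. The share on the arm reaches 64.7% in replicate 1 and 51.9% in replicate 2 at folds of 4 and over, and the intervals of the arm and of 1 to 14 Mb overlap in every class.

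The strongest peak of each list on the arm had no partner. In replicate 1 it lay at 40083764 to 40083949 with a fold of 5.63 and a pileup of 21 (exact 95% Poisson interval 13.0 to 32.1), and the nearest replicate 2 summit was 22803 bp away. Among replicate 1 arm peaks with no partner, the next lay at 36842126 to 36842361 with a fold of 4.98, and the nearest replicate 2 summit was 6932 bp away. Peaks at 31159164 to 31159699, 34497479 to 34497611 and 37291467 to 37291619 tied for the third place among those with no partner, with a fold of 4.61, and the nearest replicate 2 summits were 191, 5424 and 400 bp away. So a high fold in replicate 1 went with no call nearby in replicate 2 at some sites, and with an offset peak at others.

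In replicate 2 the strongest peak with no partner lay at 39518352 to 39518539 with a fold of 5.41 and a pileup of 21, and the nearest replicate 1 summit was 939 bp away. A peak at 39520208 to 39520367, under 2 kb from it, tied for the third place among those with no partner with one at 37926592 to 37926740, at a fold of 4.43. The second of them lay at 27415259 to 27415682 with a fold of 4.68, and a replicate 1 summit lay 72 bp away, in a peak that overlapped it by less than the limit. In all, 185 of the 839 replicate 1 peaks with no partner (22.1%) and 193 of the 1067 in replicate 2 (18.1%) had a summit of the other list within 1 kb. These shares were not counted over the whole lists, so they cannot be read as a trait of the arm.

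The GFP-Halo background under the arm's peaks was close to that from 1 to 14 Mb. It was recovered from the pileup and the fold. In replicate 1 it took its lowest value, 2.91 fragments, under 629 arm peaks (59.3%, 95% Wilson interval 56.4% to 62.3%). In replicate 2 the lowest value, 3.06 fragments, stood under 688 arm peaks (53.4%, 50.7% to 56.1%). An identical value under so many peaks acts as a floor of the list. It cannot be read as a level measured at each site. From 1 to 14 Mb the shares were 59.8% (55.8% to 63.6%) in replicate 1 and 53.5% (50.2% to 56.9%) in replicate 2, and in the whole lists 58.2% and 52.8%. The q-value was 0.05 or lower at 326 arm peaks (30.8%, 28.1% to 33.6%) in replicate 1, against 30.4% (26.8% to 34.2%) from 1 to 14 Mb. In replicate 2 it was so at 416 (32.3%, 29.8% to 34.9%) on the arm, against 30.6% (27.6% to 33.8%) from 1 to 14 Mb. For both measures the differences lay within these intervals. A fold of at least 3 was found at 449 arm peaks (42.4%) in replicate 1 and 390 (30.3%) in replicate 2, beside 40.7% and 26.1% of the whole lists.

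Peaks of pileup 40 or more numbered 20 on the arm in each list, beside 1.15% of all peaks in replicate 1 and 1.04% in replicate 2. From 1 to 14 Mb there were 2 in each list. Most of those on the arm lay in 1 group, with 16 peaks from 33500730 to 33580646 in replicate 1 and 12 peaks from 33498153 to 33580693 in replicate 2. Every peak called in these stretches had such a pileup, with 77 as the lowest in either list and 220 and 255 as the highest in replicates 1 and 2. Elsewhere on the arm, pileups from 20 to 39 occurred at only 2 replicate 1 peaks and 4 replicate 2 peaks, so the group stood far above its surroundings.

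The GFP-Halo background of the group was raised as well. It had a median of 48.4 fragments (34.3 to 87.5) in replicate 1 and 57.5 (36.0 to 97.5) in replicate 2, or 16.6 and 18.8 times the lowest level. Fold enrichment in the group was modest, at 2.02 to 2.54 (median 2.25) in replicate 1 and 2.10 to 2.83 (median 2.48) in replicate 2. The highest peak had its summit at 33553396 in replicate 1 and 33553408 in replicate 2, with OsWRKY11-Halo pileups of 220 and 255 over GFP-Halo backgrounds of 85.9 and 90.3. The lists paired 11 sites in the group, with summits a median of 12 bp apart, and 9 of these within 30 bp. The pileup was higher in replicate 2 at 10 of the 11 pairs and the fold at 8 of 11.

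**Figure D5:**
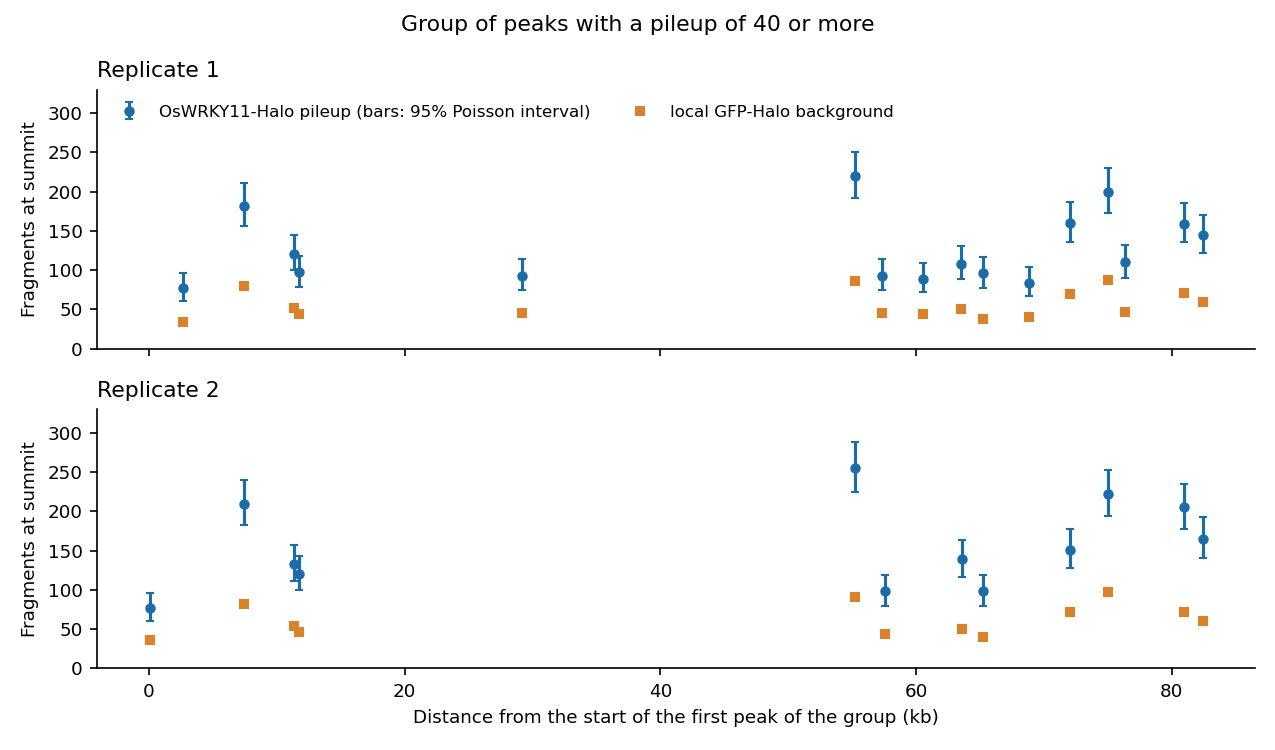
OsWRKY11-Halo pileup (circles, with exact 95% Poisson intervals) and local GFP-Halo background (squares) for the group of peaks with a pileup of 40 or more. The x axis gives the distance in kb from the start of the group's first peak. The pileup counts fragments at the summit, while the background was recovered from the pileup and the fold and was not counted there. Replicate 1 (top) has 16 peaks and replicate 2 (bottom) 12. Folds in the group lie only between 2.02 and 2.83, so a background recovered from them follows the pileup by arithmetic. Both are highest past the middle of the group.

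Outside this group, the high peaks of the arm were few. The site at 39125040, ranked sixth above, had a neighbour with a summit at 39114300 in replicate 1 (pileup 40) and one at 39121497 in replicate 2 (pileup 68), neither with a partner. A site at 38272717 to 38273124 had a pileup of 111 in replicate 1 and 109 in replicate 2 at folds of 2.03 and 2.04, and replicate 2 had a second peak beside it at 38271082 to 38271335 with a pileup of 245. A site at 20440433 to 20440665 had a pileup of 48 with a fold of 2.28 in replicate 1 and of 79 with a fold of 3.48 in replicate 2, where a further peak with a pileup of 60 followed at 20442041. Replicate 2 alone had such a pileup at 28530809 to 28530927 (70) and at 35465096 to 35465367 (56), and the second of these had a replicate 1 partner with a pileup under 40.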

How the data were processed

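DAP-seq peak lists of 2 OsWRKY11-Halo libraries, both called with the 1 GFP-Halo library as control, were analysed. Groups and replicate numbers follow the titles. The protocol writes DDZ for the control titled DZZ. The tools named, per the submitters' processing notes, were MACS2 2.2.7.1, BWA 0.7.12-r1039 and Trimmomatic 0.36, with roles, options and build not given in the sources used here. Per the file headers, the deposited values are a pileup (coverage signal), a fold enrichment (ratio), and a p-value and a q-value on the −log10 scale. They are the authors' own scores per peak. Library depths are not known here.

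Peaks were assigned by summit. The background was taken as (pileup + 1) / fold − 1, and called lowest within 0.001 of the list's minimum. No comparison was given a p-value, as there are 2 lists, they share a control, and peaks are not replicates. The members, regions and alternatives were chosen with earlier results of these data known. Sites were named by rule: the 8 strongest shared peaks, peaks around OsWRKY11, the windows with most and fewest shared peaks, groups with a pileup of at least 40 (neighbours within 100 kb) and the 3 strongest unshared peaks per list. Pairing and density ratios were run on simulated lists with known answers, as a check of the code only. Shared peaks there were copies moved by a few bp, so their recovery was set in advance, unlike the wider offsets of real pairs. Alternatives were other overlaps, thresholds, windows and bounds. Software was matplotlib 3.10.9, pandas 2.3.3, numpy 2.4.6, scipy 1.17.1 and Python 3.11.15.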

Additional observations from a re-analysis of the deposited data

How the results depend on the processing

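The mean ratio of peak density, long arm over 1 to 14 Mb, stayed within the spread of the 2 lists in the alternatives that kept both lists. Each list alone gave 0.887 and 1.04, on either side of 1. These single values lie within that spread by construction and say nothing on stability. The ratio for shared peaks, 1.11 as a mean of the lists, was 1.05 without peaks of pileup 40 or more in either list, 1.15 with the comparison region started at the chromosome's first base, 1.56 at a q-value of at most 0.05, 1.22 at a fold of at least 3, 1.13 with an overlap of 1 bp, 1.14 with summits within 100 bp and 0.944 with an overlap of 50% of both peaks. The last lies on the other side of 1, and the cause was not tested. Behind the 1.56 were 83 arm pairs. In the main pairing, 82 arm pairs and 31 pairs from 1 to 14 Mb were within that q-value in replicate 1 and in replicate 2. The 82 include all 15 arm pairs with a pileup of 40 or more, 11 of them from 1 group. From 1 to 14 Mb only 2 peaks of each list had such a pileup. The ratio at that q-value without such peaks was not tested. The mean share of arm peaks with a partner, 19.0%, was 22.6% at that q-value, 23.3% with an overlap of 1 bp, 11.8% with 50% of both peaks and 13.8% with summits within 100 bp. The median fold was 3.32 at that q-value, and 2.71 and 2.81 in each list alone. The share on the lowest background, 56.4% as a mean, was 61.3% at that q-value and 69.6% at a fold of at least 3, with 53.4% and 59.3% in each list alone. The share within that q-value, 31.5% as a mean, was 30.3% without peaks of pileup 40 or more and 83.9% at a fold of at least 3, which selects for it, with 30.8% and 32.3% in each list alone. The rho of fold enrichment was 0.523 with an overlap of 50% of both peaks and, in an alternative chosen after seeing the data, 0.158 on the lowest background in both lists. The r over windows, 0.236, was higher in its 4 alternatives, at 0.240 to 0.427, and the cause was not tested.

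No paired analysis was possible because the single GFP-Halo library is the control of both lists. Shared peaks need both replicates, and neither was left out of those results. With a median pileup of 11, counting error limits every single site.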

Other observations

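The number of peaks in replicate 2 over that in replicate 1 took different values along the chromosome, a difference that was not tested. It was 1.22 (exact conditional 95% interval 1.12 to 1.32) on the long arm, against 1.42 (1.28 to 1.58) from 1 to 14 Mb, and 1.34 over the whole lists. The intervals of the arm and of 1 to 14 Mb overlap. They cover counting error only and are too narrow, as window counts varied more than Poisson counts. By window of the arm the ratio ran from 0.927 to 1.82. Replicate 2 exceeded replicate 1 most from 41 to 42 Mb, with 82 and 45 peaks, and from 24 to 25 Mb, with 72 and 40. It fell below replicate 1 in 4 windows, among them 39 to 40 Mb with 51 and 55 peaks. From 25 to 31 Mb the lists were level, with 333 peaks in replicate 2 and 324 in replicate 1, whereas from 20 to 25 Mb they held 320 and 216. These stretches were chosen after their values were seen, and the part of depth or of the libraries in them was not tested.

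The window from 41 to 42 Mb held 11 shared peaks in each list, numbers that pairing makes nearly equal. With totals of 45 and 82 peaks, the shares with a partner were 24.4% in replicate 1 and 13.4% in replicate 2. The window from 30 to 31 Mb held 62 replicate 1 and 61 replicate 2 peaks with 16 shared in each, while its neighbour from 31 to 32 Mb held 33 and 41 with 3 shared. Neighbouring summits of the arm lay a median of 13616 bp apart in replicate 1 and 11416 bp in replicate 2, and 104 and 116 neighbours were under 1 kb apart.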
